A study of Mus musculus with 4 samples.

Results

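The lysine of histone H3 known as H3K36 is methylated by 1 set of enzymes and demethylated by another. The 10 genes Setd2, Nsd1, Nsd2, Nsd3, Ash1l, Kdm2a, Kdm4a, Kdm4b, Kdm4c and Kdm8 were chosen by that function. Earlier results of these data were known when they were chosen. All probe sets listed with exactly 1 of these symbols were taken, which gave 28 of 45037 tested probe sets and 9 of the 10 genes. No probe set of the annotation used here names Ash1l, alone or with other genes, and it was not analysed here. Each gene was represented by its probe set with the highest mean over all arrays, and its other probe sets are given beside it.

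The F9 line, derived from a mouse embryonal carcinoma and similar to early embryonic stem cells, was profiled on 4 Affymetrix mouse 430 2.0 arrays with total RNA. Both groups were infected with pLKO.1 lentivirus and selected with puromycin. The 2 shVector arrays come from cells with the control vector and the 2 shPhf19 arrays from cells with a short hairpin RNA against Phf19. The labels call the arrays biological replicates, but they name neither the number of hairpins nor whether infections were separate, so every p-value measures the spread between these arrays, which may be technical.

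H3K36 methylation marks transcribed chromatin. Setd2 makes the trimethyl form while travelling with elongating RNA polymerase II, and Nsd1, Nsd2, Nsd3 and Ash1l make mono- and dimethylated H3K36. The Jumonji (JmjC) demethylases Kdm4a, Kdm4b and Kdm4c remove the tri- and dimethyl forms and also act on H3K9, Kdm2a removes the dimethyl form at CpG islands, and Kdm8 is a JmjC protein first described as an H3K36 demethylase. The mark hinders methylation of H3K27 by Polycomb repressive complex 2, and the Tudor domain of Phf19 binds methylated H3K36. The comparison asks whether RNA of the enzymes that set the mark differed when this reader was knocked down.

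Phf19 itself was read in every array as a check of the labels. Probe set 1427920_at read 6.07 and 6.14 in shVector and 5.08 and 5.17 in shPhf19 on the log2 scale, a fall by 1.97-fold (log2 change, shPhf19 minus shVector, -0.98 ± 0.10 SE; limma adjusted p = 0.0108). With 1 of the 4 arrays left out the change ran from -1.03 to -0.93 and was not called (adjusted p from 0.114 to 0.692), as no probe set of the array was in those fits. Probe set 1431857_at read 6.32 and 6.11 in shVector and 6.05 and 6.26 in shPhf19 and did not pass (-0.06 ± 0.12 SE, limma adjusted p = 0.928). It was the brighter of the 2, at percentile 55.6 of mean level over all probe sets, against 48.0 for 1427920_at. By the rule used for the other genes it would represent Phf19, and 1427920_at lay below the array median. The fall in Phf19 therefore rests on the dimmer probe set.

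None of the 28 probe sets and none of the 9 genes passed the test (limma, Benjamini-Hochberg adjusted over all 45037 probe sets, threshold 0.05), where 1.41% of all probe sets and 2.02% of all genes did. Nsd2 and Nsd3, 2 of the methyltransferase genes, had the lowest values relative to control among the 9 genes, at 74.8% (95% interval 66.2% to 84.6%) and 74.4% (64.3% to 86.2%) of the shVector signal. Kdm4c was highest, at 120.5% (105.0% to 138.2%), and Kdm8 stood at 82.9% (71.1% to 96.7%). Setd2, Nsd1, Kdm2a, Kdm4a and Kdm4b lay between 94.4% and 112.7%, and each of their intervals included 100%. The 95% interval of every one of the 28 probe sets lay within a 2-fold change in either direction.

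**Figure D1:**
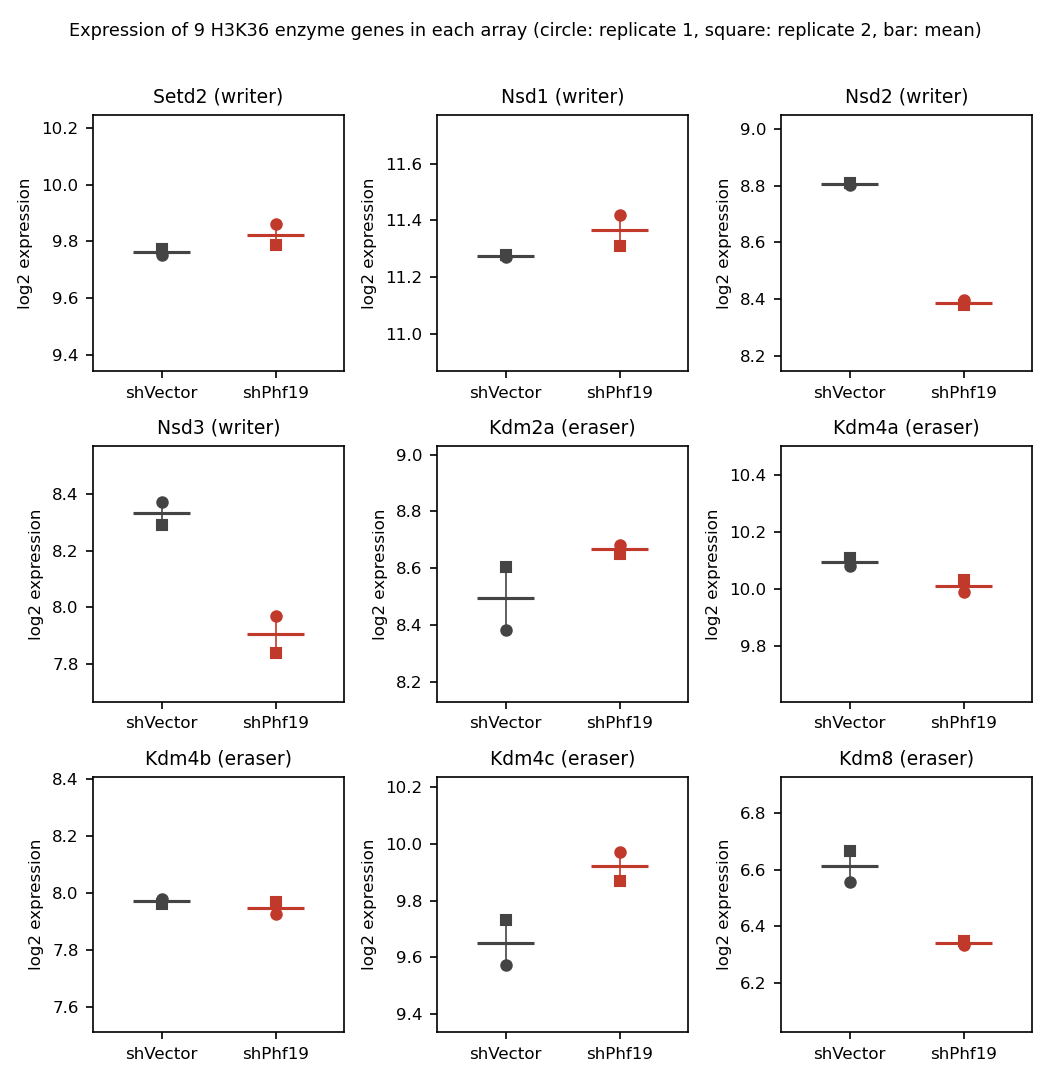
Log2 expression (y axis, each panel spanning the same range of log2 units) of the representative probe set of 9 genes in shVector (grey) and shPhf19 (red) arrays; circles are replicate 1, squares replicate 2, and bars the mean of the 2 arrays. In Nsd2 the arrays lie at 8.80 and 8.81 in shVector and at 8.40 and 8.38 in shPhf19, whereas in Kdm4b the groups overlap.

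At an unadjusted p under 0.05, limma gave 4 of the 9 genes (44.4%, against 15.1% of all genes) and 7 of the 28 probe sets (25%, against 12.7% of all probe sets). Both shPhf19 arrays lay on 1 side of both shVector arrays for 8 of 9 genes (all but Kdm4b) and 17 of 28 probe sets. That pattern was shown by 43.5% of all genes and 40.5% of all probe sets. The difference exceeded both distances between replicates in 5 of the 9 genes and 11 of the 28 probe sets. This last count was not made over all genes. The median absolute log2 difference was 0.17 over the 9 genes and 0.14 over the 28 probe sets, beside 0.09 over all genes and 0.09 over all probe sets. The signed median was -0.02 over the 9 genes and 0.005 over the 28 probe sets, with 14 probe sets below 0, so the values lay on both sides of 0. Whether these shares exceed those of other gene sets was not tested.

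Among the methyltransferase genes, Nsd2 came closest to the threshold. Nsd2, also known as MMSET or Whsc1, makes dimethylated H3K36 and is overexpressed by a chromosomal translocation in multiple myeloma. Its representative probe set, 1436036_at, read 8.80 and 8.81 in shVector and 8.40 and 8.38 in shPhf19. The replicates differed by 0.01 and 0.02, against -0.42 ± 0.07 (SE) between groups (95% interval -0.59 to -0.24, limma adjusted p = 0.0591). The adjusted p was 0.0484 with quantile normalization, 0.0498 without the 25% of probe sets with the lowest mean and 0.0383 without the lowest 50%. Over all alternatives it ran up to 0.858, reached without shPhf19 replicate 1.

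The other 4 probe sets of Nsd2 did not pass and lay closer to 0. Probe set 1428827_at, similarly bright, read 8.65 and 8.55 in shVector and 8.27 and 8.54 in shPhf19, a log2 difference of -0.19 ± 0.11 (SE) with 1 shPhf19 array almost level with a control. Probe sets 1435136_at (0.07 ± 0.11) and 1455228_at (0.02 ± 0.11), which were designed on the same cDNA sequence, overlapped between groups. The dimmest, 1443741_x_at, stood at 0.12 ± 0.14 and its suffix marks probes that can bind other transcripts. With the mean of all 5 probe sets in place of the brightest, Nsd2 was at -0.08 (limma adjusted p = 0.72). Nsd2 encodes several protein isoforms, to which the probe sets were not assigned here.

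Nsd3, also known as Whsc1l1, gave a like value by its representative probe set, 1447931_at. It read 8.37 and 8.29 in shVector and 7.97 and 7.84 in shPhf19, with no overlap. The log2 difference was -0.43 ± 0.09 (SE, 95% interval -0.64 to -0.21, limma adjusted p = 0.0937), more than 0.08 and 0.13, the distances between its replicates. Over the alternatives the adjusted p stayed between 0.0589 and 0.829, so no setting called it.

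The 6 probe sets of Nsd3 divided into 3 below and 3 above 0. Besides 1447931_at, probe set 1459907_a_at read 5.86 and 6.19 in shVector and 5.49 and 5.50 in shPhf19. That is the most negative value of all 28 probe sets (-0.53 ± 0.13 SE, limma adjusted p = 0.138), although the shVector arrays differed from each other by 0.33. Probe set 1457793_a_at was at -0.33 ± 0.12 (6.13 and 6.40 against 5.99 and 5.88). Both names end in _a_at, the suffix for probe sets shared by several transcripts of 1 gene. The remaining 3 probe sets, 1455668_at (0.06 ± 0.09), 1442085_at (0.05 ± 0.09) and 1457794_at (0.15 ± 0.12), all overlapped between groups.

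Within Nsd3, 1457794_at and 1457793_a_at were designed on the same cDNA sequence and still lay on opposite sides of 0. Probe set 1457794_at read 6.14 and 5.96 in shVector and 6.08 and 6.32 in shPhf19. Its replicates differed by 0.17 and 0.24, more than the groups did. Nsd3 is known to produce a short isoform without the catalytic SET domain, but the probe sets were not assigned to isoforms here. The mean of the 6 probe sets gave -0.17 (limma adjusted p = 0.304).

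Nsd1, the gene mutated in Sotos overgrowth syndrome, was bright and differed little by its representative probe set. Probe set 1435088_at read 11.27 and 11.28 in shVector and 11.42 and 11.31 in shPhf19. The log2 difference of 0.09 ± 0.06 (SE, limma adjusted p = 0.637) was below the 0.11 between the shPhf19 arrays. Probe set 1456916_at was on the same side at 0.12 ± 0.09.

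Another Nsd1 probe set, 1440972_at, went the other way without passing. It read 7.09 and 7.01 in shVector and 6.81 and 6.68 in shPhf19 (-0.30 ± 0.09 SE, limma adjusted p = 0.248). The last, 1420881_at, lay below the array median and at -0.01 ± 0.13. With the mean of all 4 probe sets the sign turned, to -0.03 (adjusted p = 0.943).

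Setd2, the single enzyme responsible for most trimethylated H3K36 in mammalian cells, had 1 probe set. Probe set 1428555_at read 9.75 and 9.77 in shVector and 9.86 and 9.79 in shPhf19. The log2 difference of 0.06 ± 0.07 (SE, limma adjusted p = 0.818) was smaller than the 0.07 between the shPhf19 arrays. Its 95% interval, -0.10 to 0.22, corresponds to 93.2% to 116.6% of control.

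**Figure D2:**
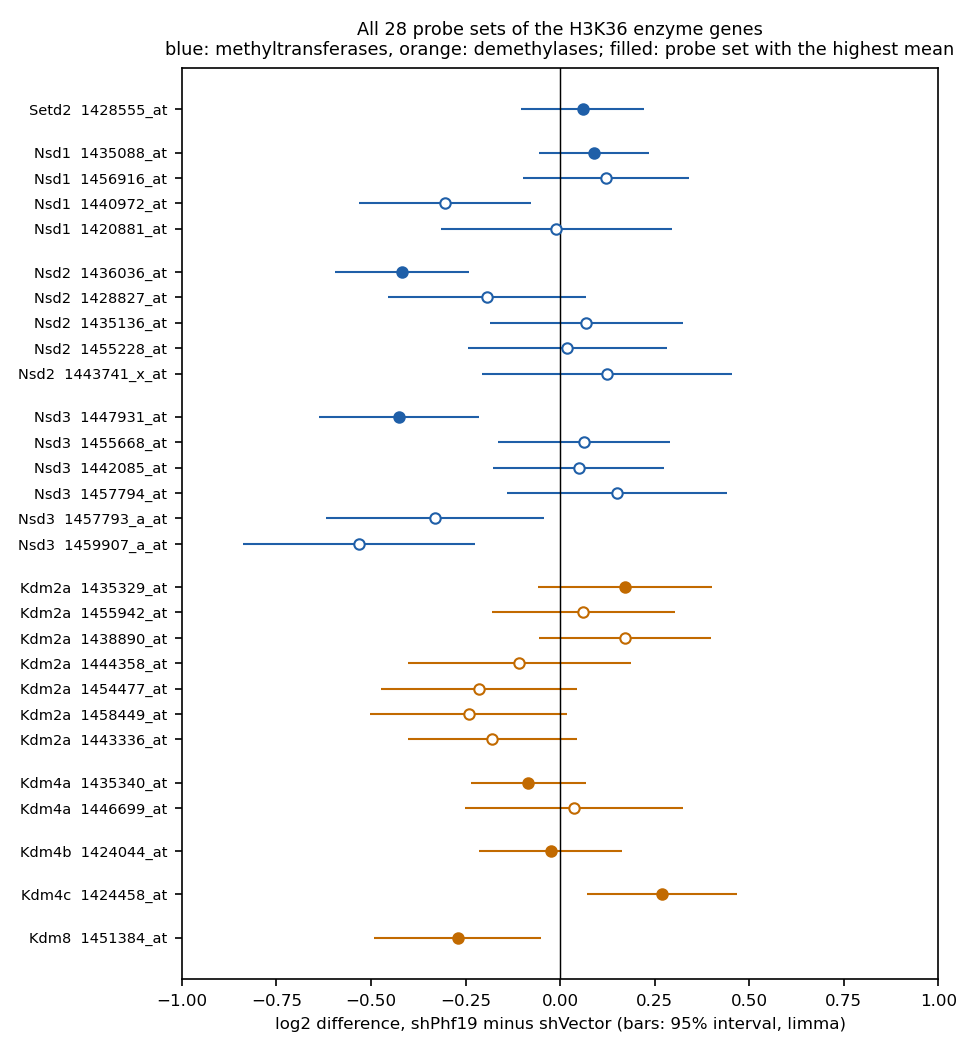
Log2 difference between shPhf19 and shVector (x axis) for each of the 28 probe sets (y axis), with 95% intervals from limma as bars; blue are methyltransferases, orange demethylases, and filled points the representative probe set of each gene. Intervals of 7 probe sets exclude 0 (3 of Nsd3 and 1 each of Nsd1, Nsd2, Kdm4c and Kdm8), and probe sets of Nsd1, Nsd2, Nsd3, Kdm2a and Kdm4a lie on both sides of 0.

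Among the demethylase genes, Kdm4c was the one with the most positive value. Kdm4c encodes a demethylase of trimethylated H3K9 and H3K36 that supports self-renewal in mouse embryonic stem cells. Its only probe set, 1424458_at, read 9.57 and 9.73 in shVector and 9.97 and 9.87 in shPhf19, with no overlap. The log2 difference was 0.27 ± 0.08 (SE, 95% interval 0.07 to 0.47, limma adjusted p = 0.24), larger than the 0.16 and 0.10 between replicates. Over the alternatives it ran from 0.19 to 0.35 and never passed (lowest adjusted p = 0.105).

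The related genes Kdm4a and Kdm4b had values closer to 0. Kdm4a read 10.08 and 10.11 in shVector and 9.99 and 10.03 in shPhf19 by 1435340_at (-0.08 ± 0.06 SE, limma adjusted p = 0.693). Its second probe set, 1446699_at, lay below the array median at 0.04 ± 0.12. Kdm4b read 7.98 and 7.96 in shVector and 7.93 and 7.97 in shPhf19 by 1424044_at (-0.02 ± 0.08 SE, adjusted p = 0.958), and its groups overlapped. Differences between the 3 Kdm4 genes were not tested.

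Kdm8, also called Jmjd5, had 1 probe set, below 0 without passing. Later biochemical work assigned this protein a hydroxylating activity as well, and it is needed for embryonic growth in mice through restraint of the cell cycle inhibitor Cdkn1a. Probe set 1451384_at read 6.56 and 6.67 in shVector and 6.33 and 6.35 in shPhf19. The log2 difference was -0.27 ± 0.09 (SE, 95% interval -0.49 to -0.05, limma adjusted p = 0.289), and the groups did not overlap. Leaving out 1 array moved it between -0.33 and -0.21.

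Kdm2a had 7 probe sets, the most of any member, and they differed by brightness. Kdm2a carries a CXXC zinc finger that binds unmethylated CpG islands. Its representative probe set, 1435329_at, read 8.38 and 8.60 in shVector and 8.68 and 8.65 in shPhf19 (0.17 ± 0.10 SE, limma adjusted p = 0.55). The difference was below the 0.22 between the shVector arrays, and it was 0.06 without shVector replicate 1 and 0.28 without shVector replicate 2.

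The 3 Kdm2a probe sets above the array median of 5.75, with mean levels from 7.54 to 8.58, were at 0.06 to 0.17. The 4 below it, with levels from 3.96 to 5.45, were at -0.24 to -0.11. No Kdm2a probe set reached an unadjusted p under 0.05. Of the 7, 1455942_at turned below 0 without shVector replicate 2 (-0.02) or shPhf19 replicate 2 (-0.03), and 1444358_at turned above 0 without shPhf19 replicate 2 (0.04). The mean of all 7 gave -0.05 (adjusted p = 0.853). The table has no detection calls, so values of the 4 dim probe sets may be background. Kdm2a also makes a short isoform that lacks the JmjC domain, and the probe sets were not assigned to isoforms.

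**Figure D3:**
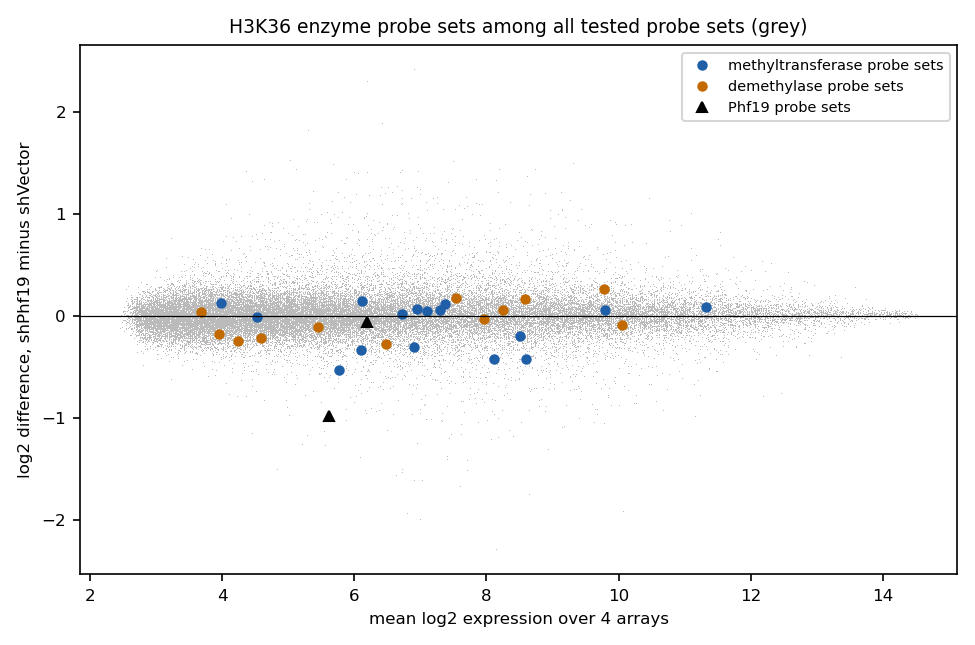
Log2 difference between shPhf19 and shVector (y axis) against the mean log2 expression over 4 arrays (x axis) for all 45037 tested probe sets (grey), with methyltransferase (blue) and demethylase (orange) probe sets and the 2 Phf19 probe sets (triangles). The member probe sets span -0.53 to 0.27, inside the range of the grey points, and 7 of the 28 lie below the array median of 5.75.

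Other genes that handle the mark included some that passed the test. Where 2.02% of all genes passed, 1 of 7 further genes listed as H3K36 enzymes rose and none fell. That gene was Kdm2b, the paralog of Kdm2a, which rose 1.35-fold by its representative probe set (11.07 and 10.95 in shVector, 11.45 and 11.44 in shPhf19, log2 change 0.43 ± 0.06 SE, limma adjusted p = 0.0322). Its other probe set also passed (0.52 ± 0.07, adjusted p = 0.031). The difference between the Kdm2a and Kdm2b changes was not tested.

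Of 15 genes for proteins that bind methylated H3K36, 1 rose, 1 fell and 13 did not pass, where 2.02% of all genes passed. Dnmt3b, a DNA methyltransferase with a PWWP domain that binds the mark, rose 1.22-fold (12.33 and 12.30 against 12.61 and 12.58, limma adjusted p = 0.0481). Zmynd11, which binds trimethylated H3K36 on histone H3.3, fell 1.34-fold (10.16 and 10.07 against 9.67 and 9.71, adjusted p = 0.0469). The median of the 15 genes was 0.02, beside -0.003 over all genes. By probe sets, 4 of 38 passed, where 1.41% of all probe sets did. Besides those of Dnmt3b and Zmynd11, these were 1427920_at of Phf19 and 1 of Dnmt3a, at 0.59 ± 0.09 (SE, limma adjusted p = 0.04). Phf19 is itself such a reader, and by its brighter probe set it counts among the 13 genes that did not pass. The other Dnmt3a probe sets, at 0.39 to 0.52, did not pass, among them the representative (0.48, limma adjusted p = 0.164). The second Dnmt3b probe set (0.34 ± 0.06) and the other 3 of Zmynd11 (-0.44 to -0.13) did not pass. All 7 partner genes of Setd2 and Ash1l measured here missed the threshold (limma), with 1 at an unadjusted p under 0.05, where 15.1% of all genes were. Among them Iws1, an elongation factor that recruits Setd2, was at -0.19 ± 0.06 (SE) and Hnrnpl, whose product binds Setd2, at 0.08 ± 0.07. The other probe set of Iws1 was at -0.07 ± 0.09 with overlapping groups, and that of Hnrnpl at 0.07 ± 0.10. With 1 array left out, the log2 change of Kdm2b ran from 0.37 to 0.49, that of Dnmt3b from 0.26 to 0.30 and that of Zmynd11 from -0.47 to -0.38. Fits without an array called 0 probe sets over the whole array, so they cannot tell whether these calls are stable.

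Other genes of the SET and JmjC families, outside the H3K36 lists used here, served as a comparison. Of 20 other SET methyltransferase genes 1 passed, where 2.02% of all genes did. It was Setd7, which rose 1.55-fold (0.63 ± 0.10 SE, limma adjusted p = 0.0386), although its dimmer probe set was at 0.05 ± 0.09. Of 14 other JmjC genes none passed and 3 had an unadjusted p under 0.05 (limma), where 15.1% of all genes did. Kdm7a was at 0.39 ± 0.09 (SE), with its other probe sets at 0.01 to 0.34. Kdm5b was at -0.24 ± 0.06, with its other probe sets at -0.23 to 0.13. The median absolute log2 difference by genes was 0.09 in the SET list and 0.08 in the JmjC list, beside 0.17 for the 9 H3K36 genes. It was 0.07 in the list of further H3K36 enzymes and 0.07 in that of readers. By probe sets it was 0.14 for the members, 0.24 for the further H3K36 enzymes and 0.11 for the readers. The SET and JmjC lists stood at 0.09 and 0.09 by probe sets. The lists were not tested against each other.

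Markers of the line and of other cell types were read in the same arrays. The 10 F9 markers, among them Pou5f1 and Sox2, had levels from 10.4 to 14.3, and none passed (limma). An unadjusted p under 0.05 was seen for 4 of them, where 15.1% of all genes had one. Nanog was at -0.26 ± 0.05 (SE) and Fgf4 at 0.19 ± 0.06. Of 10 primitive and visceral endoderm markers 3 rose and none fell, where 2.02% of all genes passed. The 3 were Dab2 (2.64-fold), Gata6 (2.28-fold) and Pdgfra (2.26-fold). The second Sox17 probe set, dimmer than the representative, also passed, at 1.41. Other probe sets of these genes did not pass, at 0.09 to 0.44 for Dab2, 0.00 and 0.08 for Gata6, 0.13 and 0.46 for Pdgfra and 0.27 for Sox17. At an unadjusted p under 0.05, limma gave 6 of the 10 genes by their representative probe sets, where 15.1% of all genes did. Of the genes that did not pass, Gata4 stood at 0.38 ± 0.10 (SE) and Lama1 at 0.30 ± 0.08. Foxa2 stood at 0.30 ± 0.13 and Sox7 at -0.24 ± 0.11. By their representative probe sets Gata4, Foxa2, Afp and Sox17 lay below the array median, Sox17 at percentile 38.3 of mean level. The mean log2 level of that list was 5.95 and 6.03 in the shVector arrays and 6.46 and 6.44 in the shPhf19 arrays, while Afp and Ttr, which define visceral endoderm, were at -0.17 ± 0.13 and 0.00 ± 0.12. Of 8 fibroblast markers none passed (1 at an unadjusted p under 0.05), with Thy1 at 0.46 ± 0.12 and Postn at -0.24 ± 0.11, and list means from 4.50 to 4.56 in all arrays. The part of endoderm-marked cells in the values of Nsd2, Nsd3, Kdm4c and Kdm8 was not tested. In these bulk samples, a change in the number of cells of a type and a change in RNA per cell cannot be told apart.

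**Figure D4:**
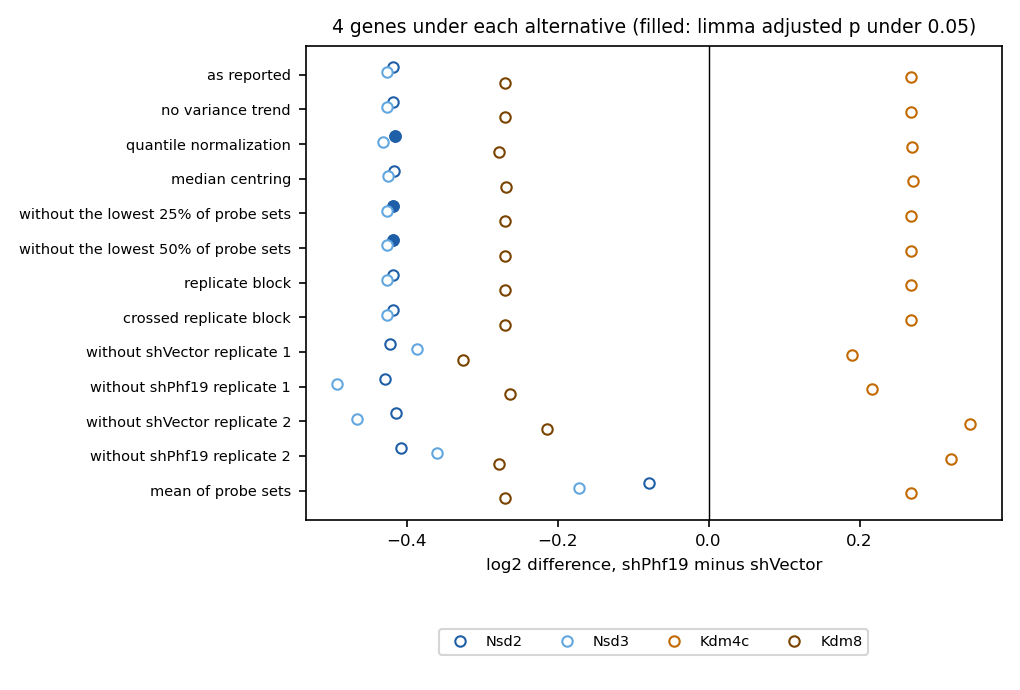
Log2 difference between shPhf19 and shVector (x axis) of the representative probe sets of Nsd2, Nsd3, Kdm4c and Kdm8 under each alternative (y axis); filled points have a limma adjusted p under 0.05. Kdm4c stays above 0 and the other 3 below 0 under every alternative, Nsd2 is filled under 3 alternatives, and Nsd2 and Nsd3 move to -0.08 and -0.17 with the mean of probe sets.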

How the data were processed

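Values were taken from the authors' deposited table, 1 value per probe set and array, read as log2 expression because they ran from 2.31 to 14.7 and natural logs of a 16-bit scanner stop at 11.1. Array medians lay between 5.75 and 5.77, so the arrays had been normalized to each other before deposit. Software and background correction: not given in the sources used here. Of 45101 probe sets, 64 control probe sets were left out. GEO's platform annotation gave 34945 of the rest 1 gene symbol, 932 several and 9160 none, and a RefSeq table (GRCm38.p6) changed 0 symbols. Files name no build, so no coordinates are given.

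The 2 groups were fitted in limma 3.58.1 under R 4.3.3 with an intensity trend in eBayes, two-sided, without a filter on level. Errors are limma's moderated standard errors, on 2 residual degrees of freedom (median 6.51 after moderation). The test was checked on simulated data. Members, lists and alternatives were chosen with earlier results of these data known. From each other list every passing gene was named, or the 2 with the smallest p where none passed. Other genes named (Pou5f1, Sox2, Afp, Ttr, Sox7, Gata4, Lama1, Foxa2, Dnmt3a and Sox17) were chosen after their values were seen. Same-numbered replicates deviated with a correlation of -0.197, so no replicate term was used. The number of arrays limits every value.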

Additional observations from a re-analysis of the deposited data

How the results depend on the processing

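Across the array limma called 636 probe sets as reported, 380 without a variance trend, 856 with quantile normalization, 736 with median centring, 771 and 796 without the lowest 25% and 50% of probe sets, 0 with the replicate block (3890 at an unadjusted p under 0.05) and 0 to 0 with 1 array left out (2539 to 6942 unadjusted), where the lone array of a group is assumed to vary like the other group. A block with crossed numbers, added after the data were seen because same-numbered arrays correlated below 0, called 596. The labels do not say that a number marks a shared day, and neither block called a member. Member probe sets called rose from 0 to 1, and member genes from 0 to 1, with quantile normalization (Nsd2 at -0.41), without the lowest 25% of probe sets (-0.42) and without the lowest 50% (-0.42). Phf19 probe set 1427920_at kept -0.98 but lost its call with the replicate block, and ran from -1.03 to -0.93 with 1 array left out; it was not measured after the 50% filter. The mean of probe sets turned Nsd1 to -0.025 and Kdm2a to -0.048; no other setting turned the sign of a representative probe set of a member. With 1 array left out Setd2 ran from 0.023 to 0.096, Nsd1 from 0.037 to 0.14, Kdm2a from 0.062 to 0.28 and Kdm4b from -0.045 to -0.0045. Of 307 member values under alternatives 15 turned sign, 13 of them with 1 array left out. Those ranges were -0.17 to 0.15 for Nsd1 1420881_at, -0.020 to 0.16 for Nsd2 1435136_at, -0.090 to 0.13 for Nsd2 1455228_at, -0.065 to 0.31 for Nsd2 1443741_x_at, -0.027 to 0.13 for Nsd3 1442085_at, -0.022 to 0.15 for Nsd3 1455668_at, -0.26 to 0.043 for Kdm2a 1444358_at, -0.030 to 0.15 for Kdm2a 1455942_at and -0.11 to 0.18 for Kdm4a 1446699_at. For Phf19 1431857_at it was -0.16 to 0.052. The cause of these changes was not tested.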
